A study of Drosophila melanogaster with 6 samples.

Results

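Glutathione S-transferases are enzymes that join the tripeptide glutathione to reactive or foreign molecules. The cytosolic enzymes of insects fall into classes named by Greek letters, of which Delta (D) and Epsilon (E) are expanded in insects and best known for the breakdown of insecticides, whereas Omega (O), Sigma (S), Theta (T) and Zeta (Z) are shared with other animals. Several also remove the aldehydes formed when membrane lipids are oxidised. Many class D and E genes respond to the transcription factor CncC, the fly counterpart of Nrf2. The genes were taken by symbol, as every row of the count table whose FlyBase identifier maps to a name of the form Gst followed by D, E, O, S, T or Z and a number. This gave 35 genes of 17753 in the table, with 11 in class D, 14 in class E, 3 in class O, 1 in class S, 4 in class T and 2 in class Z.

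The 6 libraries were made from male *Drosophila melanogaster* of 1 genotype, with Repo-GS, a GeneSwitch driver active in all glia when the drug RU486 is present, and a construct for RNA interference that targets the UDP-glycosyltransferase gene Ugt35b. Both groups carried driver and construct. At day 10, 3 libraries came from flies given ethanol (EtOH), the control, and 3 from flies given RU486, each from 10 flies. RU486 without the construct was not analysed here, so drug and knockdown cannot be told apart in any difference below. The labels name the head as the tissue and the protocol names brains. Whether libraries of 1 group were raised separately is not stated, so the p-values rest on differences between libraries that may be technical.

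Library totals ranged from 10156909 to 12636787 counts. The target, listed as Ugt35B1, was at 145, 136 and 147 counts per 1000000 (CPM) in EtOH replicates 1 to 3 and at 106, 83.5 and 104 CPM in RU486 replicates 1 to 3, lower in each RU486 library. Marker genes fixed for other cell types were summed as CPM of the library total. Photoreceptor markers summed to between 60437 and 70814 in EtOH and between 56887 and 61238 in RU486, with Arr2, which lies inside another gene, at 0, and muscle markers to between 3078 and 3540.0 and between 3018 and 3301, so eye and muscle RNA was present in every library. Midgut markers stood apart, at 35.2 to 57.5 in the EtOH libraries and at 38.7, 10292 and 864 in RU486 replicates 1 to 3. Of these 12 markers 7 could be tested and 2 rose. In bulk RNA, fewer cells of a type and less RNA per cell cannot be told apart.

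Of the 35 transferase genes, 31 had enough reads to be tested, and each of these had at least 30 counts in every library. A gene was called when its p from edgeR's quasi-likelihood test, adjusted by Benjamini-Hochberg for the 8945 genes tested, was under 0.05. GstE2, GstD5 and GstS1 fell in RU486, which is 3 of 31 members (9.68%), against 3.28% of all genes tested. None rose, against 4.36% of all genes. No member had a higher level at an unadjusted p under 0.05 (0 of 31), and the DESeq2 Wald test and limma-voom also called 0 higher. The other 28 did not pass. The number called lower was 8 without EtOH replicate 2, 2 without EtOH replicate 1 and also without RU486 replicate 1 or 2. It was 1 without either of the libraries numbered 3.

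Most differences were small and of 1 sign. The log2 fold change, RU486 minus EtOH, was below 0 for 26 of 31 members, against 49.4% of all genes tested, and its median was -0.17, against 0.00 over all genes. Transferase genes are short, with a median exonic length of 887 bases against 2193 bases over all genes tested, and short genes as a whole lay lower in RU486. Among the 1299 tested genes with exonic lengths from 700 to 1200 bases, the median was -0.08 and 62.3% lay below 0. The 25 members in that range had a median of -0.20, with 88.0% below 0. With a correction for length the median over the members was -0.08, and GstE2, GstD5 and GstS1 remained called. The levels in the 3 RU486 libraries lay below those in the 3 EtOH libraries, without overlap, for 7 of 31 members, against 13.5% of all genes, and above them for 0 of 31, against 13.9%.

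**Figure D1:**
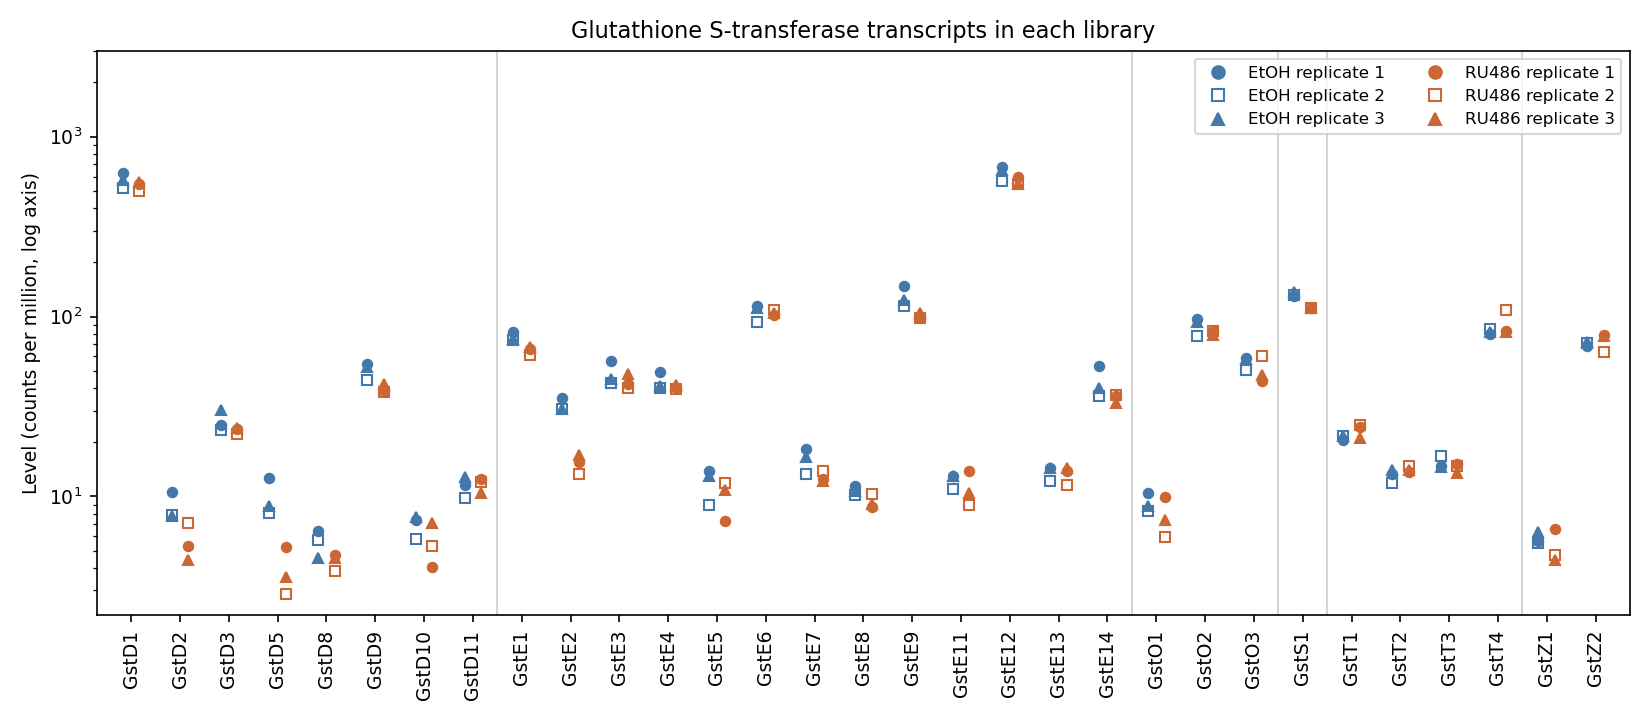
Level of each of the 31 tested genes in CPM on a log axis, with 1 point per library, EtOH in blue and RU486 in orange, and vertical lines between classes D, E, O, S, T and Z. GstD1 and GstE12 stand above the others, and for GstE2 and GstD5 the points of the groups lie clearly apart.

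The control libraries were not alike for this family. Of the 31 members, 23 had their lowest EtOH level in EtOH replicate 2, against 44.6% of all genes tested, and 19 had their highest in EtOH replicate 1, against 37.3%. Over the members, the median log2 difference of EtOH replicate 2 from the mean of the other EtOH libraries was -0.21, and that over all genes was -0.04. Genes of like length were not compared in this way. A trait of the family and a trait of short genes therefore cannot be told apart here. Summed over all 35 genes, the level was 2548, 2161 and 2401 CPM in EtOH replicates 1 to 3 and 2162, 2083 and 2133 CPM in RU486 replicates 1 to 3. EtOH replicate 2 thus overlapped with RU486 replicate 1, while the other EtOH libraries lay above every RU486 library. Antennal markers, of which 1 of 5 tested fell, followed a like order, with sums of 3048, 2353 and 2887 CPM in EtOH and 2452, 2057 and 2289.7 in RU486. All 5 had log2 fold changes below 0, from -0.49 to -0.12. Most are short genes too, with exonic lengths of 575 to 1101 bases, and 1941 bases for Orco. The part of antennal RNA or of gene length in this order was not tested.

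**Figure D2:**
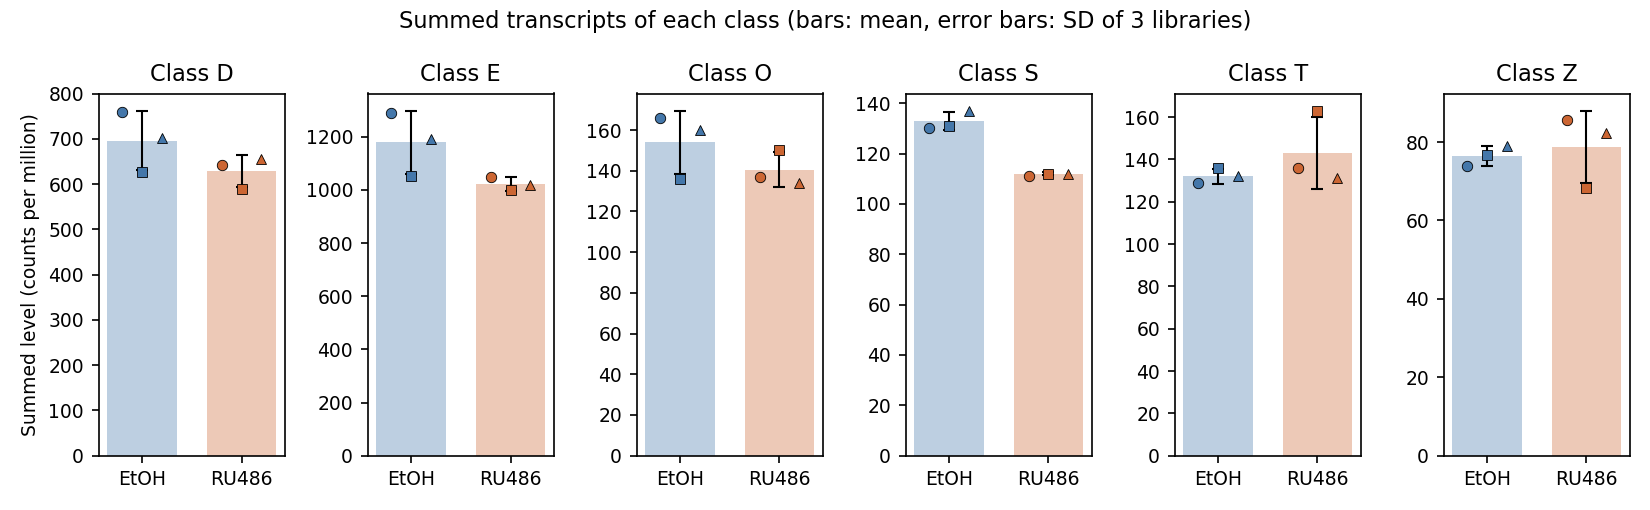
Summed level of the members of each class in CPM, with bars for the mean, error bars for the SD of 3 libraries, and circles, squares and triangles for replicates 1, 2 and 3. The sums of classes E and S do not overlap between groups, whereas those of classes D, O, T and Z do.

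By class, class E held the largest part of the family's transcripts and class D the next. Per kilobase of exon, class E made up 48.9% of the summed level in EtOH and 47.4% in RU486, and class D made up 36.4% and 36.7%. Class O took 5.42% and 5.53%, class T 5.06% and 6.12%, class S 2.57% and 2.41% and class Z 1.62% and 1.83%. The summed level of class E was 1179 CPM in EtOH (SD 119, n = 3) against 1022 ± 25.1 CPM in RU486, and that of class D was 696 ± 66.0 against 629 ± 35.3 CPM. The class E sums did not overlap, with the lowest EtOH library at 1054 CPM and the highest RU486 library at 1049.8 CPM. The class D sums did, since EtOH replicate 2 was at 627 CPM.

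Class D was the class with the widest range of differences, from -1.34 to 0.03 on the log2 scale over its 8 tested members, with a median of -0.35. Its 11 genes lie together on chromosome 3R, from 12364776 to 12385624 of BDGP6, a span of 20.8 kb that holds 1 other protein-coding gene of the table, CG10035. GstD1, whose enzyme breaks down DDT and whose promoter is a common reporter of CncC activity, made up 82.7% ± 0.558 of the class's CPM in EtOH and 84.9% ± 0.569 in RU486. It was at 630, 521 and 575 CPM in EtOH and at 548, 496 and 558 CPM in RU486. The groups overlapped, and the log2 fold change of -0.11 had a 95% interval from -0.32 to 0.10.

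GstD5 had the largest estimated difference of all tested members. It is a gene of 1 exon on the plus strand (12375733 to 12376572). It was at 12.6, 8.04 and 8.84 CPM in EtOH and at 5.22, 2.88 and 3.55 CPM in RU486. Every RU486 library lay below every EtOH library, and EtOH replicate 1 was the highest. The log2 fold change was -1.34 with a standard error (SE) of 0.26, a fall to 39.5% of the EtOH level (edgeR, adjusted p = 0.0146). The call was lost without EtOH replicate 1 (adjusted p = 0.0717), EtOH replicate 3 (0.0578) or RU486 replicate 3 (0.0686).

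GstD2, likewise a gene of 1 exon in the plus-strand run from GstD2 to GstD8, had the next largest difference among the tested class members and did not pass. Its levels were 10.6, 7.87 and 7.75 CPM in EtOH and 5.31, 7.11 and 4.44 CPM in RU486, and the groups did not overlap (log2 fold change -0.64, SE 0.22, edgeR adjusted p = 0.120). GstD4, which lies between GstD3 and GstD5, was too low to be tested, at 7, 10 and 11 counts in EtOH and 1, 2 and 3 counts in RU486. In the fit without a filter its log2 fold change was -1.91, beyond that of GstD5, with an edgeR adjusted p of 0.125. GstD6 had 12 counts over the EtOH libraries and 13 over the RU486 libraries. GstD7 had 0 counts in 5 libraries and 4 in RU486 replicate 2, the library with the highest midgut sum. The part of gut RNA in those counts was not tested.

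The remaining class D genes differed less. GstD9, next to GstD1 on the minus strand, was at 54.3, 44.4 and 52.6 CPM in EtOH and at 38.6, 38.2 and 42.4 CPM in RU486, without overlap (log2 fold change -0.34, SE 0.10, edgeR adjusted p = 0.0687). GstD3 (-0.17), GstD8 (-0.35) and GstD10 (-0.35) had intervals that include 0, and GstD11, at the far end of the cluster, had levels of 11.4 ± 1.48 CPM with EtOH and 11.6 ± 1.13 CPM with RU486. GstD5 took 1.40% ± 0.226 of the class's CPM in EtOH and 0.615% ± 0.173 in RU486. Genes within the cluster are similar in sequence, so the division of reads between neighbours such as GstD2, GstD4 and GstD5 depends on how the authors' counting treated shared reads, which is not given in the sources used here.

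**Figure D3:**
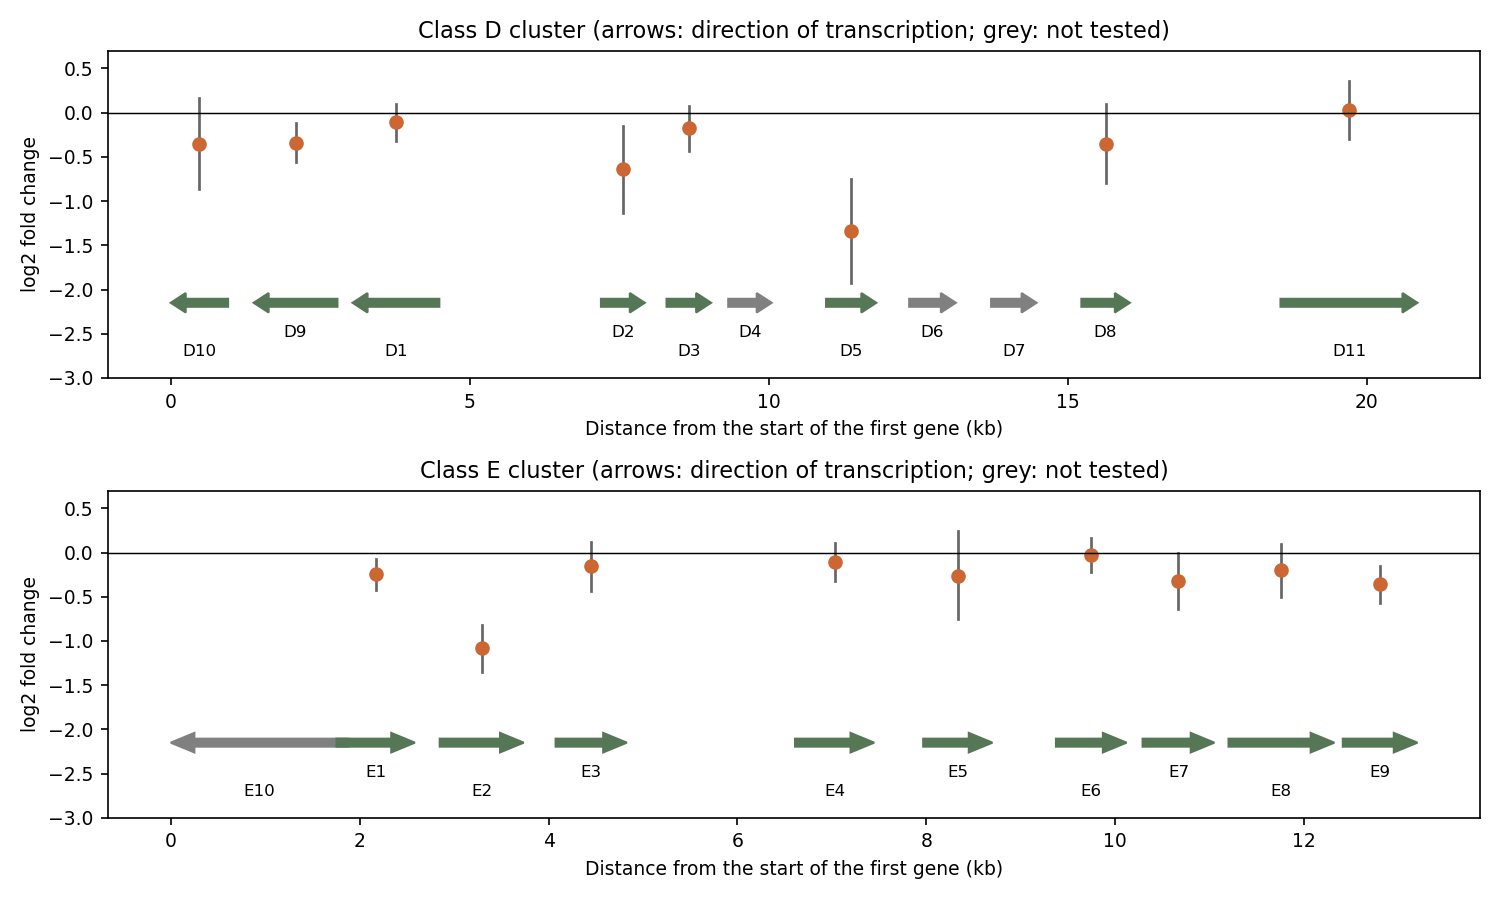
Positions of the class D genes (upper panel) and of the clustered class E genes (lower panel) as distance in kb from the start of the first gene, with arrows for the direction of transcription. Points give the log2 fold change of RU486 minus EtOH and bars its 95% interval. GstD5 and GstE2 lie below the nearest tested gene on each side. GstD4 and GstD6, next to GstD5, were not tested and have no point.

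In class E all 13 tested members had a log2 fold change below 0, from -1.08 to -0.03, and 1 of them, GstE2, passed the test. Its genes GstE1 to GstE10 lie within 13.2 kb on chromosome 2R (18396638 to 18409835), and GstE11 to GstE14 lie elsewhere on the same chromosome arm. The 9 tested genes of the cluster had a median of -0.24 and the 4 outside it a median of -0.17. In the mosquito Anopheles gambiae, an enzyme also named GSTE2 is known to break down DDT.

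GstE2 (FBgn0063498, plus strand, 18399486 to 18400375, 1 exon) was at 35.4, 30.7 and 30.6 CPM in EtOH and at 15.6, 13.3 and 16.9 CPM in RU486. The groups lay far apart, and the spread within each was small beside the gap. It fell to 47.2% of the EtOH level (log2 fold change -1.08, SE 0.12, edgeR adjusted p = 0.000755). Each of the 16 other fits with at least 2 libraries per group called it, with adjusted p-values from 3.50e-11 to 0.00759. These include the 6 with a library removed, all of which called 1.20% of tested genes as lower. Falls that were called and at least 2-fold made up 0.481% of all genes tested.

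The neighbours of GstE2 moved much less. GstE1, which ends 262 bases before it, was at 82.1, 74.1 and 75.0 CPM in EtOH and 65.8, 61.4 and 68.1 CPM in RU486 (log2 fold change -0.24, SE 0.08, edgeR adjusted p = 0.0925), without overlap. GstE3, which starts 337 bases after it, was at 48.1 ± 7.54 and 43.3 ± 3.98 CPM, with an interval from -0.43 to 0.12. GstE2 made up 6.69%, 7.18% and 6.53% of the CPM of the cluster in EtOH and 3.97%, 3.34% and 4.06% in RU486. Its share of the cluster was thus lower in each RU486 library, which does not depend on how libraries were scaled. Whether the difference of GstE2 exceeded that of its neighbours was not tested, since it was singled out for its value.

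GstE9, the last gene of the cluster and its most abundant per kilobase, came close to the threshold. Its levels were 147, 114 and 124 CPM in EtOH and 98.1, 98.7 and 104 CPM in RU486, without overlap (log2 fold change -0.36, SE 0.09, edgeR adjusted p = 0.0524), and it was called in 8 of the 16 other fits with at least 2 libraries per group. It overlaps imd on the other strand. GstE6, nearly as abundant at 107 ± 11.7 CPM, was at 105 ± 3.13 CPM in RU486, with a log2 interval from -0.22 to 0.16. GstE4 (-0.11), GstE5 (-0.26), GstE7 (-0.32) and GstE8 (-0.20) lay between these and did not pass. GstE10 had 3 counts over the EtOH libraries and 4 over the RU486 libraries and could not be tested.

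GstE12 was the most abundant class E gene per kilobase, and the most abundant of all members in CPM. It was at 681, 566 and 655 CPM in EtOH and at 594, 546 and 544 CPM in RU486, and the groups overlapped through EtOH replicate 2 (log2 fold change -0.18, 95% interval -0.38 to 0.03). GstE14, known as Noppera-bo and needed for ecdysteroid synthesis in the larval prothoracic gland, was at 53.1, 36.2 and 40.0 CPM in EtOH and 36.1, 36.7 and 33.0 CPM in RU486, and did not pass (-0.29, edgeR adjusted p = 0.258). GstE11 (-0.16) and GstE13 (-0.04) did not pass either.

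**Figure D4:**
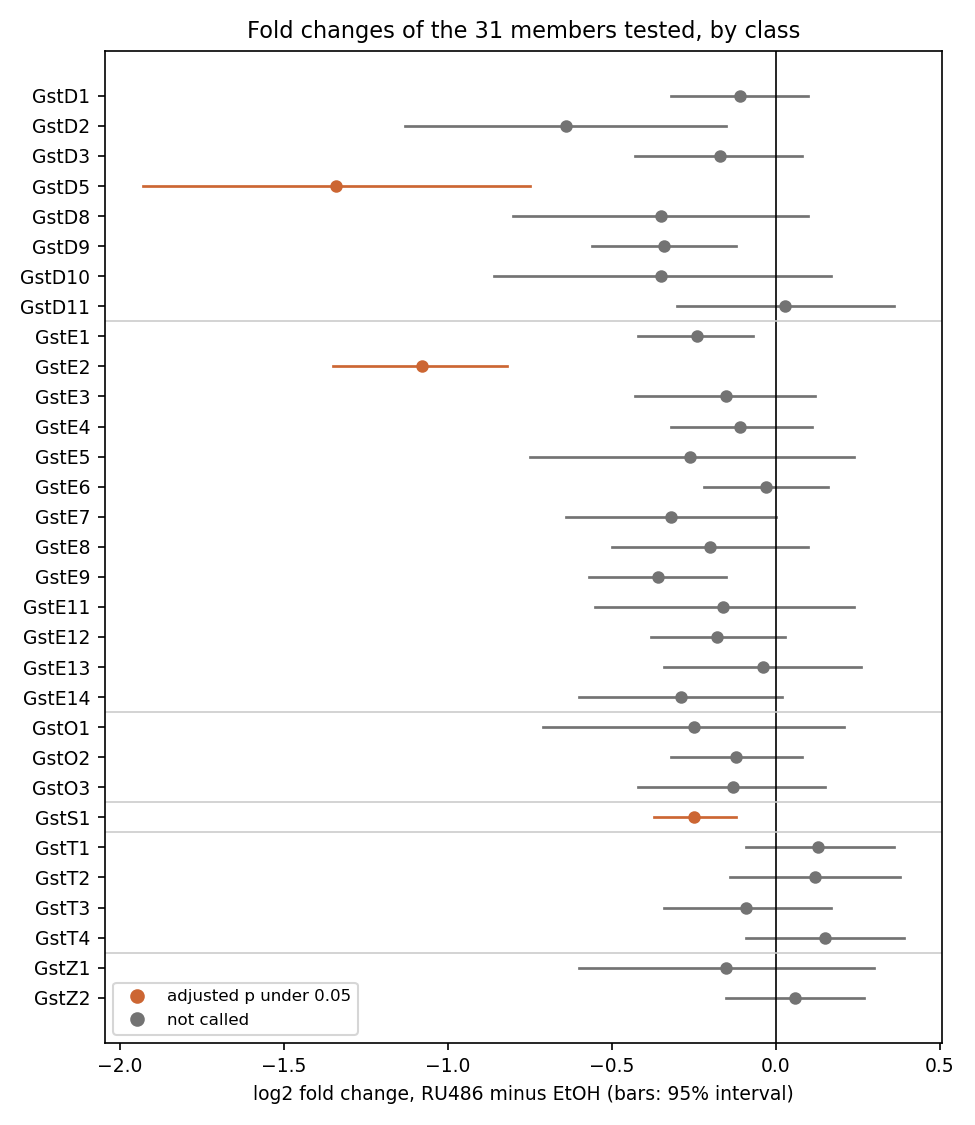
Log2 fold change of RU486 minus EtOH for the 31 tested genes, ordered by class, with bars for the 95% interval and orange for adjusted p under 0.05. The intervals of 7 genes lie wholly below 0, those of GstD2, GstD5, GstD9, GstE1, GstE2, GstE9 and GstS1, and none lies wholly above it.

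Class S has 1 gene, GstS1 (chromosome 2R, 17093246 to 17099501), whose enzyme conjugates the lipid peroxidation product 4-hydroxynonenal and is abundant in flight muscle. It was at 130.0, 131 and 137 CPM in EtOH and at 111, 112 and 112 CPM in RU486. The RU486 libraries were nearly equal and lay below each EtOH library, EtOH replicate 2 included. The fall was to 84.4% of the EtOH level (log2 fold change -0.25, SE 0.06, edgeR adjusted p = 0.0334). The call was lost without EtOH replicate 3 (adjusted p = 0.123) or any 1 RU486 library (0.122 to 0.170). The sums of muscle markers, given above, overlapped between groups, and of 7 tested markers 0 were called lower and 0 higher. Tm2 and wupA lay lower in each RU486 library (log2 fold changes -0.10 and -0.13). Act57B, up and fln had -0.14, -0.08 and -0.83, with overlap between groups, and Mhc and Act88F had 0.07 and 0.11. The part of muscle RNA in the GstS1 level was not tested.

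Class O enzymes are known for thiol transfer and the reduction of dehydroascorbate rather than for conjugation. Its most abundant member per kilobase, GstO3, was at 58.5, 50.7 and 57.7 CPM in EtOH and 43.8, 60.7 and 47.6 CPM in RU486, so that RU486 replicate 2 lay above every EtOH library (log2 fold change -0.13, 95% interval -0.42 to 0.15). GstO2 (-0.12) and GstO1 (-0.25) did not pass. The fourth fly class O gene, sepia (se), makes a precursor of the red eye pigments. It does not bear a Gst symbol and was described with the pathway genes. Its levels were 37.9, 28.7 and 32.7 CPM in EtOH and 21.9, 22.7 and 26.6 CPM in RU486, and it fell (-0.48, SE 0.12, edgeR adjusted p = 0.0495). That call was lost without any 1 library other than EtOH replicate 2 (adjusted p = 0.0612 to 0.162), with the length correction (0.113), without a filter (0.0617) and with limma-voom (0.0567). It overlaps GstO2 on the other strand, and as the strand setting of the counting is not known, reads of the pair may not have been told apart.

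Classes T and Z held the members with positive differences, besides GstD11. GstT4, the most abundant class T gene per kilobase, was at 80.3, 85.2 and 81.9 CPM in EtOH and at 83.0, 108 and 82.5 CPM in RU486. Its higher mean came from RU486 replicate 2, and the log2 fold change of 0.15 was 0.00 without that library. GstT1 (0.13) and GstT2 (0.12) lay slightly above 0 and GstT3 (-0.09) slightly below, and all 4 intervals included 0. The class T sums were 129, 136 and 132 CPM for EtOH, against 136, 163 and 131 CPM for RU486, a log2 ratio of the means of 0.12 that was 0.01 without RU486 replicate 2. Class Z enzymes carry out the isomerase step of tyrosine breakdown. GstZ2 was at 68.3, 71.2 and 72.6 CPM in EtOH and 79.1, 63.6 and 77.9 CPM in RU486 (0.06, 95% interval -0.15 to 0.27), and GstZ1, its low neighbour, was at 5.82 ± 0.470 and 5.24 ± 1.16 CPM. Neither passed.

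Gene structure varied with the estimates. The 12 tested members with 1 annotated exon, all from the class D and E clusters, had log2 fold changes from -1.34 to -0.03 and a median of -0.29, and 5 of them lay lower in RU486 without overlap between groups. The 19 with 2 or more exons ranged from -0.35 to 0.15 with a median of -0.13, and 2 of them lay lower without overlap, against 13.5% of all genes tested. The sum of the members with 1 exon was 516 ± 54.9 CPM in EtOH against 430.0 ± 11.5 CPM in RU486, and that of the others 1854 ± 142 and 1696 ± 40.7 CPM. Class, length and exon number go together in this family and cannot be told apart.

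The wider glutathione pathway showed no common direction. Of 35 genes in 6 lists, 25 could be tested, and 2 fell and 2 rose, against 7.64% of all genes called in either direction, with a median log2 fold change of 0.04. Of the genes that make glutathione, Gclc and Gclm had enough counts to be tested. Gclc, the catalytic subunit of the rate-limiting ligase, was at 176, 169 and 169 CPM in EtOH and 201, 233 and 201 CPM in RU486, higher in each RU486 library but short of the threshold (0.30, SE 0.08, edgeR adjusted p = 0.0574). Its modifier subunit Gclm did not pass (0.09). The glutathione synthetase genes Gss1 and Gss2 are near copies and had too few counts to be tested. Gss1 had 18 counts over the EtOH libraries and 7 over the RU486 libraries, and Gss2 had 14 and 6 counts. These counts depend on how reads shared by the copies were treated, which is not given in the sources used here, so they may not reflect the level of the transcripts.

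Both calls in opposite directions among the turnover genes concerned gamma-glutamyl transpeptidases, which split extracellular glutathione. Ggt-1 rose from 45.1 ± 1.85 to 67.7 ± 5.40 CPM (0.59, SE 0.08, edgeR adjusted p = 0.00334) and stayed called whichever of the 6 libraries was removed. CG4829, annotated in the same family by sequence, fell from 132 ± 7.30 to 103 ± 3.56 CPM (-0.36, SE 0.07, edgeR adjusted p = 0.0117). The latter call was lost without any 1 RU486 library (adjusted p = 0.0509 to 0.0750) and also, by a small margin, without EtOH replicate 3 (log2 fold change -0.36).

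Of the other enzymes that use or resemble these, none but se was called. The microsomal transferase gene Mgstl was at 129.8, 107 and 119 CPM in EtOH and 103, 91.7 and 97.7 CPM in RU486, without overlap (-0.29, SE 0.08, edgeR adjusted p = 0.0721). The glutaredoxin gene Grx1 and the glutathione-dependent formaldehyde dehydrogenase gene Fdh, with the smallest p-values of their list, had -0.14 each. The 6 tested genes of that list did not pass. The peroxidase gene Gtpx and the gene gfzf lie inside other genes and had 0 counts, so they were not measured.

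The genes listed for CncC and its partners (cnc, Keap1 and maf-S) and the exporters of conjugates did not pass. The gene cnc, whose counts join CncC with the isoforms that act in embryonic head development, was at 309.8, 325 and 305 CPM in EtOH and 370, 373 and 383 CPM in RU486 (0.26, SE 0.08, edgeR adjusted p = 0.0741). Keap1, which holds CncC back, was at 37.8, 34.7 and 38.7 CPM and 45.0, 40.7 and 45.7 CPM (0.24, SE 0.08, edgeR adjusted p = 0.126). Both were higher in every RU486 library, and cnc was called in 1 of the 6 fits with a library removed. The remaining listed gene, maf-S, had -0.07, with overlap between groups. MRP and Mrp4, transporters of glutathione conjugates, had 0.23 (edgeR adjusted p = 0.228) and 0.22 (0.173). The exonic lengths of cnc, Keap1, MRP and Mrp4 are 9178, 3447, 7649 and 4726 bases, and that of Gclc is 4402 bases. All of these exceed the median of 2193 bases over all genes tested, whereas maf-S has 646 bases. No comparison with genes of like length was made for them.

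Around class Z, Hpd, which acts before GstZ in tyrosine breakdown, was the second pathway gene to rise. It was at 374, 298 and 338 CPM in EtOH and at 582, 551 and 618 CPM in RU486, far above the spread within groups (0.79, SE 0.10, edgeR adjusted p = 0.00166), and no removal of 1 of the 6 libraries ended the call. The next enzymes, hgo (0.21) and Faa (0.12), did not pass, nor did GstZ1 and GstZ2.

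**Figure D5:**
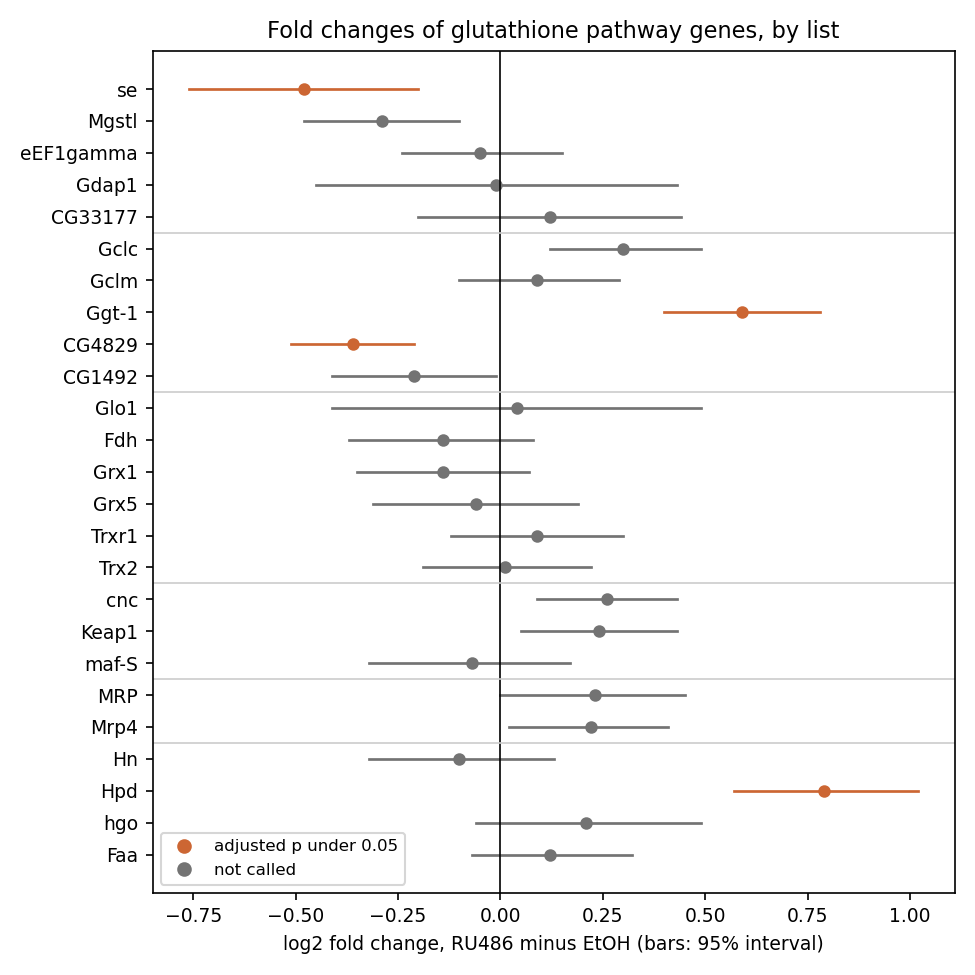
Log2 fold change of RU486 minus EtOH for the 25 tested genes of the wider glutathione pathway, by list, with bars for the 95% interval and orange for adjusted p under 0.05. The called genes se and CG4829 lie below 0 and Ggt-1 and Hpd above it.

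Marker sums of Malpighian tubule, hemocytes and glia did not overlap between groups, and those of fat body did. Fat body markers, of which 5 of 7 tested fell and 1 rose, summed to between 7012 and 7796 CPM in EtOH and between 7736 and 8216 in RU486. The largest parts of the sum were apolpp (5479.5 CPM in EtOH and 5279 CPM in RU486, not called) and Tsf1 (1432 and 2674 CPM), which rose. Those that fell were Obp99b, Lsp1beta, Yp1, Yp2 and Yp3, with log2 fold changes of -4.49, -3.51, -1.72, -1.66 and -0.37. The sum thus does not show the direction of most fat body markers tested. Malpighian tubule markers, of which 1 of 2 tested fell and Uro was at 0, summed to between 20.3 and 22.4 and between 14.3 and 15.3. Hemocyte markers, of which 1 of 4 tested rose, summed to between 495 and 516 and between 718 and 794. The marker that rose was Pxn (log2 fold change 1.18), while Hml, NimC1 and eater had 0.06, 0.03 and 0.07 and did not pass. Glial markers, of which 3 of 8 tested fell and 1 rose, summed to between 3779.9 and 3925 and between 3438 and 3755. The listed glial genes moody and alrm had 0 counts but lie inside other genes, so they were not measured. The largest part of the glial sum was Gs2, whose mean was 2061 CPM for EtOH against 2054 CPM for RU486 (not called). Gat, wrapper and zyd fell, with log2 fold changes of -1.92, -2.10 and -0.89, and Mdr65 rose (0.95). The glial sum thus does not show the size of these differences. Neuronal markers summed to between 3359.6 and 4393 and between 3620.2 and 3779, with overlap. The part of these tissues in the transferase levels was not tested.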

How the data were processed

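Poly(A) RNA of 6 libraries, 3 per group, was counted per gene by the authors, whose deposited counts are whole numbers without normalisation, per the file headers. The build is BDGP6, per the submitters' processing notes. For aligner, counter and strand setting no source used here gives a name. Symbols were found for 17626 of 17753 identifiers. Coordinates are those of Ensembl's BDGP6 annotation, and exonic length is the union of exons.

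The analysis used edgeR 4.0.16 in R 4.3.3, with filterByExpr (minimum count 10), TMM scaling and a two-sided quasi-likelihood test, and the code was tested on simulated data. Levels are CPM with TMM factors, and marker sums use library totals. The SE is the log2 fold change divided by the root of F. Alternatives used DESeq2 1.42.0, limma 3.58.1, other scalings and filters, a robust prior, a replicate block, a loess length correction and each library left out. The labels do not state whether the replicate numbers pair the libraries, and the main fit treated them as unpaired.

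Members and lists were chosen with earlier results of these data known. Named with all values were called members, those with adjusted p under 0.2 and the top member of each class per kilobase. The pathway lists gave called genes and up to 2 per list with the smallest p. Named outside the rule, after their values were seen, were Gclc, Gclm, Gss1, Gss2, Faa, maf-S, GstE14's library values, and the single muscle, hemocyte, fat body, glial and antennal markers. Of 6 antennal markers 5 were matched. Intervals are for the log2 fold change between groups and rest on differences between libraries, which may be technical.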

Additional observations from a re-analysis of the deposited data

How the results depend on the processing

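GstE2 was called lower in each of the 16 other fits with at least 2 libraries per group. GstD5 was called in 13, GstS1 in 9, GstE9 in 8 and GstD9 in 4. GstS1 narrowly missed the threshold with the replicate block (adjusted p = 0.0546), the DESeq2 Wald test (0.0571) and limma-voom (0.0503). The number of transferase genes called lower (3) was 5 with a robust prior, 1 at an adjusted p under 0.01, 6 at 0.1, and 1 without RU486 replicates 2 and 3 together, an alternative chosen after seeing the data that leaves 1 RU486 library, assumed to vary like the EtOH libraries. It ranged from 1 to 8 when 1 library was left out, and 0 were called higher in every one of these fits. With the replicate block it was 4. Same-numbered libraries had correlations of their deviations of 0.124, 0.269 and -0.0441, and not every library was closest to its own number, so the block was not read as a pairing. The block gave 872 calls over all genes, against 683. The number of pathway genes lower (2) was 1 without a filter, with the length correction or with limma-voom, 0 at 0.01, 0 without RU486 replicates 2 and 3, 3 with the robust prior, the replicate block or at 0.1, and from 0 to 3 with 1 library left out. The number higher (2) was 4 with the DESeq2 Wald test or at 0.1, and from 2 to 5 with 1 library left out. The cause of these shifts was not tested. The median of the members ranged from -0.24 to -0.08, and no class sum moved by more than the spread between replicates. Members that were not called and were near 0 changed sign. GstD11 was at -0.01 with upper-quartile factors and ranged from -0.07 to 0.12 with 1 library left out. GstE6 was at 0.07 with the length correction and from -0.12 to 0.01 with 1 library left out. GstE13 was at 0.03 with the length correction, from -0.12 to 0.04 with 1 library left out, and at 0.04 without RU486 replicates 2 and 3. Without those RU486 libraries GstE11, GstO1 and GstZ1 were at 0.18, 0.13 and 0.20. GstZ2 ranged from -0.01 to 0.15 with 1 library left out. Depth limits GstD4, GstD6, GstD7 and GstE10, with at most 28 counts per group.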
